A study of Mus musculus with 23 samples.

Results

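The genes described here are 42 genes of mitosis and of the passage from G2 into mitosis, measured in cultured mouse astrocytes that received thyroid hormone with or without a block of protein synthesis. They were taken as a given list of symbols, matched through their Ensembl identifiers to a GRCm38 annotation. All 42 were found among the 38293 genes of each count file, and all 42 passed the filter on low counts that left 16087 genes to test; the lowest count of any of them in any library was 89 reads. The study asked how astrocytes from the postnatal cerebral cortex respond at the level of RNA to T3 (triiodothyronine, the active form of thyroid hormone). Cells came from the neocortex of mice at postnatal day 3, of a hybrid strain background that joins BALB/c+C57BL/6 with 129/OLa+129/Sv, and grew for 7 days. All 6 groups then spent 24 h in 0.1% serum freed of thyroid hormone before any addition, so every comparison is between cells held in low serum. The groups were 6 h control, 6 h T3 (10 nM), 6 h CHX (8 µg/ml, read here as cycloheximide, which blocks protein synthesis), 6 h CHX with T3, 24 h control and 24 h T3. CHX was added 30 min before T3. There were 4 libraries in each group except 24 h T3, which had 3.

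Mitosis begins when the kinase CDK1, bound to cyclin A or cyclin B, is switched on by CDC25 phosphatases, and it ends when the anaphase-promoting complex, a ubiquitin ligase, has cyclin B destroyed. Between these events the kinases PLK1, Aurora A and Aurora B build the spindle and correct its attachments, kinetochores tie chromosomes to microtubules, kinesins move and slide them, and the actin ring of cytokinesis divides the cell. The RNAs of these genes are known to rise together in late S phase and G2 in dividing cells and to be held low in resting ones, through promoter elements called the cell cycle genes homology region (CHR) and the CCAAT box, which binds NF-Y. Their level in a culture is therefore commonly read as a mark of cycling cells. In bulk RNA, fewer cycling cells and less RNA per cycling cell cannot be told apart.

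Promoters of 6 of the genes are shown because short elements recur in many of the promoters of this list. Whether these elements bear on the changes in level was not tested. Each run is 250 bases before to 50 bases after the annotated start in RefSeq, build GRCm38.p6, written 5′ to 3′ along the gene. Capitals mark matches on either strand to the CHR in the form TTTGAA or in the form written TTTAAA, and to the CCAAT box, so that a CCAAT box on the other strand reads ATTGG.
Ccnb1 (cyclin B1, chr13:100786437-100786736, minus strand): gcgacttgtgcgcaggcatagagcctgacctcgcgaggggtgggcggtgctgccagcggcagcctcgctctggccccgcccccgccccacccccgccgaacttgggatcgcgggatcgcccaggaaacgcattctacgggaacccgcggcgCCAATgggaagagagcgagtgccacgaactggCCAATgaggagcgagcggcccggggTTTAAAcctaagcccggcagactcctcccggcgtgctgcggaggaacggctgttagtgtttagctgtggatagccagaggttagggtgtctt
Ccnb2 (cyclin B2, chr9:70421505-70421804, minus strand): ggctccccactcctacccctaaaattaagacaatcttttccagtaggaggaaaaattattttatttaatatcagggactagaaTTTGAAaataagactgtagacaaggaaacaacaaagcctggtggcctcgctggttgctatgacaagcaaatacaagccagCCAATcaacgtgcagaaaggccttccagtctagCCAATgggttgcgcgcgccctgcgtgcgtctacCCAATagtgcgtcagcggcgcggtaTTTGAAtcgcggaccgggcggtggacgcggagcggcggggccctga
Cdk1 (the mitotic kinase, chr10:69352863-69353162, minus strand): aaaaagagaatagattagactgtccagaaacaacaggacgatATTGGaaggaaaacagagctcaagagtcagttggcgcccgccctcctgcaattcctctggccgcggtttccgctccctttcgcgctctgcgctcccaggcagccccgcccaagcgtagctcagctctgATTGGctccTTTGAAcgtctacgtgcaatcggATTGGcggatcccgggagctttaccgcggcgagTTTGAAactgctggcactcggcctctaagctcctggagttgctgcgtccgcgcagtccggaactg
Plk1 (polo-like kinase, chr7:122159185-122159484, plus strand): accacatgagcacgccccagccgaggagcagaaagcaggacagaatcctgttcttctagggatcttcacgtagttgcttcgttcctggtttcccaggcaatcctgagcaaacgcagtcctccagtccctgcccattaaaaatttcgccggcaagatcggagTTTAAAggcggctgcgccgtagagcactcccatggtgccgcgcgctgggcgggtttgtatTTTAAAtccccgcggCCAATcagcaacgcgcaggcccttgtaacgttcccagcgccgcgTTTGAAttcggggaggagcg
Cdc20 (activator of the anaphase-promoting complex, chr4:118437294-118437593, minus strand): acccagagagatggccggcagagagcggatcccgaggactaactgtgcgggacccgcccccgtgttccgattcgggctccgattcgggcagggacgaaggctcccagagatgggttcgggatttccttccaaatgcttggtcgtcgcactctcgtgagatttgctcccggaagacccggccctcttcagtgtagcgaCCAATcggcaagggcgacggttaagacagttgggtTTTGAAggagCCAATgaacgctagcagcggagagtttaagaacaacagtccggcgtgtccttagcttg
Top2a (topoisomerase that untangles chromosomes, chr11:99024140-99024439, minus strand): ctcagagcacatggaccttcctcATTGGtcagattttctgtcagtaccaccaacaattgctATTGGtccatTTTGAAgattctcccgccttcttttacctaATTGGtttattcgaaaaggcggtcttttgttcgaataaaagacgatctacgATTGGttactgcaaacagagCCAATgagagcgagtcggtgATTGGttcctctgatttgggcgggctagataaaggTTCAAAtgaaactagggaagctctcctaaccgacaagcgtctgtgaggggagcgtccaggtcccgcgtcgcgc

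Of the 42 genes, 34 had a promoter in the RefSeq table, and Ccna2, Cdc25c, Aurkb, Incenp, Kif20a, Tpx2, Pbk and Foxm1 had none. The CHR form TTTGAA was found in 26 of the 34 (76.5%), against 18.1% of the promoters of all 27025 genes in the table. TTTAAA, the other CHR form searched, was found in 9 (26.5%, against 13.2%). One form or the other was present in 29 (85.3%, against 27.8%), and within 50 bases on either side of the start in 25 (73.5%, against 8.24%). CCAAT was found in 26 (76.5%, against 37.9%), and at least 2 matches in 17 (50%, against 12.2%). Ube2c and Top2a had the most CCAAT matches, 6 each. Of the promoters shown, those of Ccnb2, Cdk1 and Top2a each held 2 TTTGAA matches, while that of Ccnb1 held only the TTTAAA form. A CHR form and a CCAAT match stood together in 24 (70.6%, against 10.9%). The promoters of Nuf2, Nusap1 and Mad2l1 held neither. The element AGGTCA, to which thyroid hormone receptors can bind, was found in 7 (20.6%, against 16%), namely Ckap2l, Kif2c, Mad2l1, Anln, Ttk, Ccnb1 and Racgap1. The thyroid hormone response element named DR4, a direct repeat of that element, was in none of the 34 and in 3 of all 27025. The members' promoters were richer in G and C, with a median of 59% against 52.7%. These are matches of letters in a fixed window and not evidence of binding.

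The libraries held 13843040 to 22997873 gene counts. Library 4 of 6 h CHX stood apart: each of the 42 genes was lower in it than in the other 3 libraries of its group. They were lower by a median of 0.43 on the log2 scale (range 0.19 to 0.56). The median over 15209 genes was 0.00, but the scaling of library sizes holds it near 0. The drop is therefore relative to the typical gene. Library 1 of 24 h T3 stood apart over all genes: its counts differed from those of libraries 2 and 3 with a chi-square per gene of 30.5 and 38.4, against 2.72 between those 2 and 7.05 to 7.15 for library 4 of 6 h CHX, and it had the lowest share of reads outside genes (3.75%) and the highest share of reads with no unique place (42.3%) of the 23 libraries. The lane given in the file names followed the groups: lane 5 held all 6 h control and 6 h T3 libraries and 6 h CHX libraries 1 to 3, and lane 6 held 6 h CHX library 4, all 6 h CHX with T3, all 24 h control and 24 h T3 libraries 1 and 2, with 24 h T3 library 3 on lane 7. The 10 astrocyte markers summed to 7795 to 12660 CPM, with Gfap at 2320 to 5625. Markers of other cells were present too: the summed level was 1501 to 3163 CPM for 9 vascular and meningeal markers (Acta2 alone 1174 to 2735), 393.7 to 1238 for 6 ependymal markers (Foxj1 352 to 1094), 448.1 to 884.7 for 7 oligodendrocyte lineage markers (Olig1 273.6 to 599.4), 434.5 to 589.6 for 9 neuron markers and 26.65 to 93.67 for 10 microglial markers. The 6 neural progenitor markers summed to 1279 to 1916 CPM (Sox2 526.2 to 796.3, Nes 414 to 891.4). Of the defining markers, Mog and Mag of mature oligodendrocytes had 0 reads in 8 and 5 libraries and the endothelial Cldn5 in 7. Among the neuron markers, Map2 (283.4 to 407.2 CPM) and Stmn2 (65.73 to 142.6) were the highest, followed by Tubb3 (3.079 to 56.02). Rbfox3 reached at most 1.782 CPM, Snap25 2.75 and Syt1 4.335, so the neuron sum says little about the presence of neurons. The T3 target Hr was at 9.34 to 18.8 CPM in the 12 libraries without T3 and at 108 to 247 CPM in the 11 with it. Since the library kit does not mark strand, reads from genes that overlap exons on the other strand cannot be told apart; such overlap covered over 10% of the exons of Kif20a (29.3%), Ube2c (22.8%), Kif4 (15.1%), Cdc25c (12.7%), Ccna2 (12.5%) and Prc1 (11.1%).

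The 42 genes together were highest in control cells at 6 h and lowest in T3-treated cells at 24 h. Their summed level, in CPM (reads of a gene relative to the TMM-adjusted size of its library), was 3199, 3274, 3445 and 3150 in the 6 h control libraries and 2768, 2777, 2766 and 2730 with T3. With CHX it was 2526, 2535, 2720 and 1950, and with CHX and T3 it was 2821, 2968, 2988 and 2759. At 24 h it was 1661, 1582, 1794 and 1574 in control and 1359, 1342 and 1393 with T3. The T3 libraries lay below every control library at each time, and the CHX with T3 libraries lay above every CHX library. The means were 3267 ± 129.2 (SD, n = 4) in 6 h control, 2760 ± 20.8 (n = 4) with T3, 2433 ± 334.1 (n = 4) with CHX, 2884 ± 111.6 (n = 4) with CHX and T3, 1652 ± 102 (n = 4) in 24 h control and 1365 ± 26 (n = 3) in 24 h T3. Without library 4, the CHX mean was 2594 ± 109.5 (n = 3). The order of the group means was thus 6 h control, CHX with T3, T3, CHX, 24 h control and 24 h T3; CHX with T3 and T3 were neighbours whose ranges overlapped, while each T3 library lay above each CHX library. Gene by gene, 29 of the 42 had their highest mean in 6 h control and 13 in CHX with T3, and all 42 had their lowest mean in 24 h T3. The same was not counted over all genes tested.

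**Figure D1:**
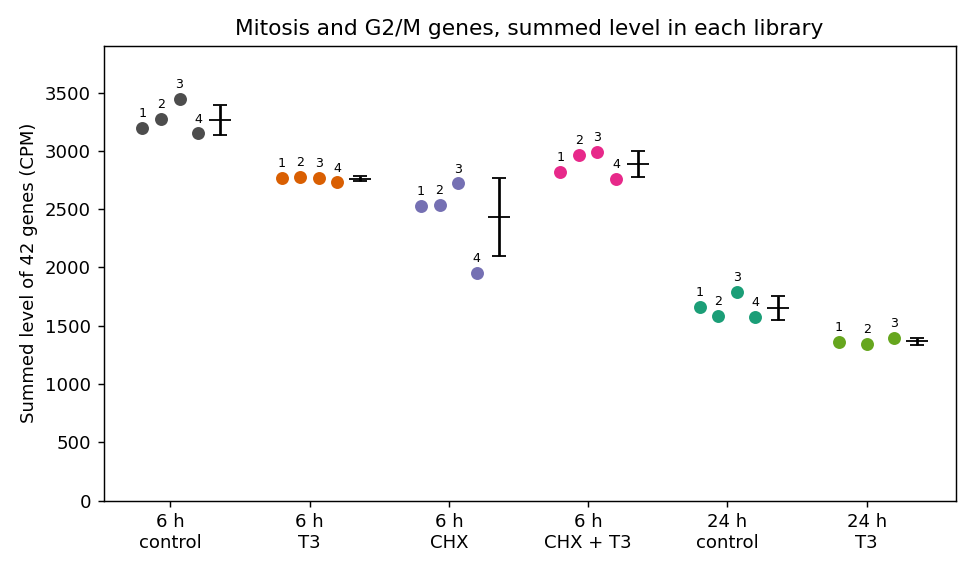
Summed level of the 42 genes in CPM (vertical axis, from 0) in each of the 23 libraries, by group; points are libraries with their replicate number, and the bar beside each group is the mean ± SD. The 24 h groups lie between 1342 and 1794, below every 6 h library, and library 4 of 6 h CHX lies at 1950, below the other 3 of its group.

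Compared per length of exon, Pbk (a mitotic kinase), Cdc20, Top2a and Ccnb2 had the highest levels in 6 h control, at 53.6, 44.9, 37.3 and 37.1 CPM per kb, which put them at the 94.0, 92.4, 90.4 and 90.3 percentiles of all genes tested. The lowest were Kif20b (3.26 CPM per kb), Cdc25c (3.32) and Ttk (4.29), at the 39.3, 39.7 and 44.8 percentiles. Across the 23 libraries the genes followed one another closely: the correlation of log2 CPM had a median of 0.90 over the 861 pairs (range 0.25 to 0.995). After each group's mean was removed it was 0.60. These values describe 23 libraries that share groups and depth. Prc1, Tpx2 and Kif20a followed the mean of the other members most closely (r = 0.991, 0.990 and 0.987), and Cdc25b, Ccna2 and Cdk1 least (0.609, 0.683 and 0.785). The 10 genes outside the list that followed the members' mean most closely, of 14289 with a mean of at least 1 CPM, were Adam12 (r = 0.981), Nek2, Spag5, Usp1, Fgl2, Kif18b, Cenpq, Depdc1a, Slco1c1 and Ncapd2 (0.963).

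**Figure D2:**
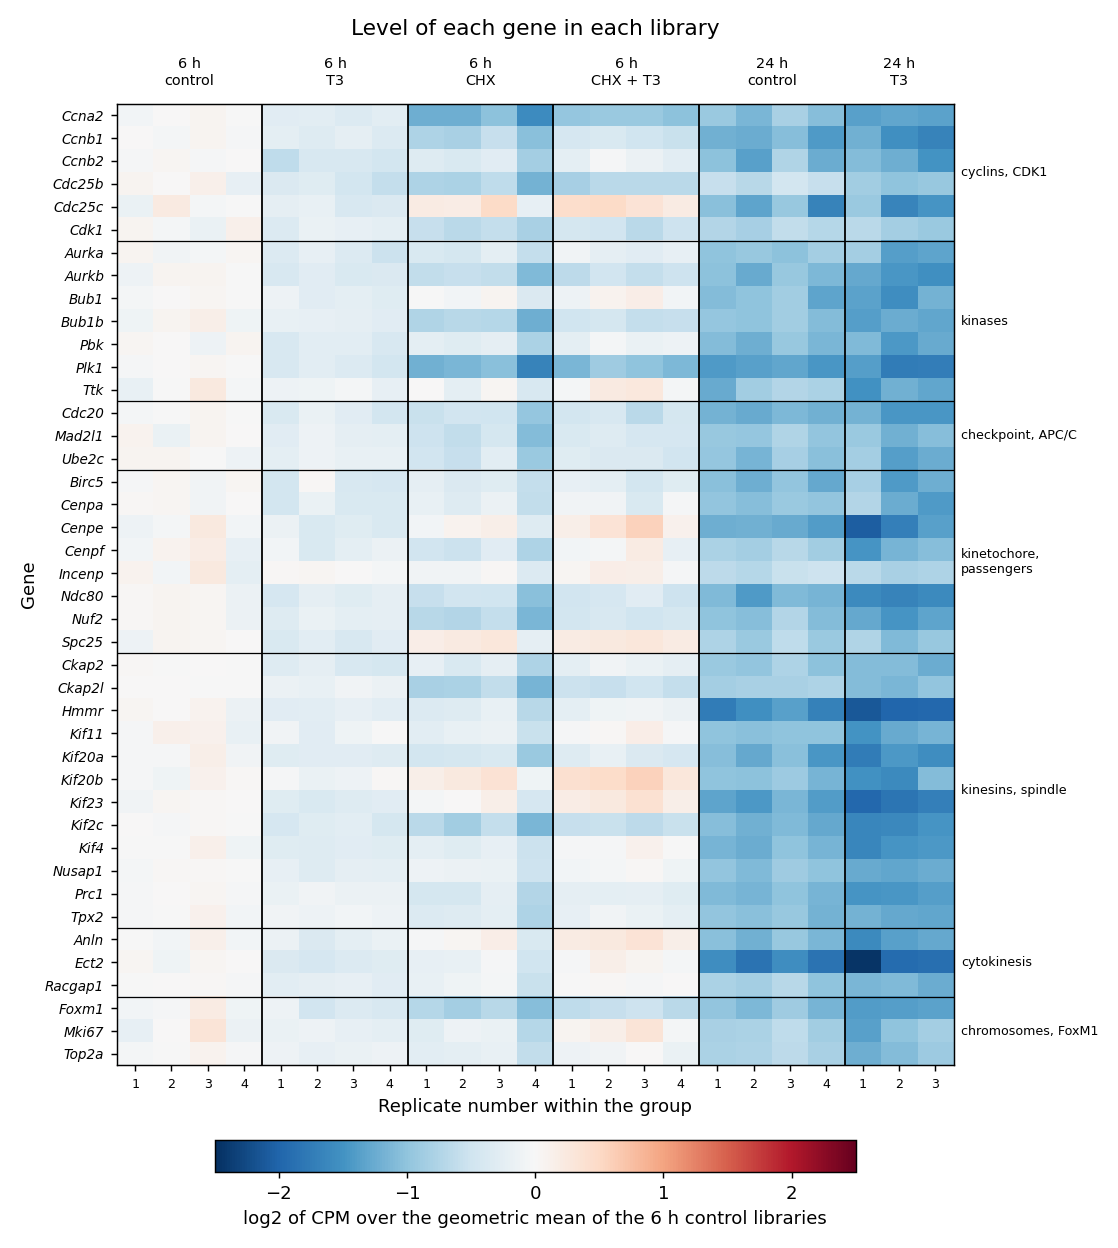
Level of each of the 42 genes (rows, by role) in each of the 23 libraries (columns, by group and replicate), as log2 of CPM over the geometric mean of the 6 h control libraries; blue is lower and red is higher. The columns at 24 h are blue in every row, and the row of Ccna2 is dark with CHX while those of Cdc25c, Kif20b and Spc25 are not.

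T3 for 6 h lowered genes of every role, by modest amounts. Of the 42 genes, 16 fell and none rose at an adjusted p under 0.05 (edgeR's quasi-likelihood test, adjusted by Benjamini-Hochberg over all genes tested, as everywhere below), where 1.16% of all genes tested fell and 3.77% changed in either direction. The fitted change was below 0 in all 42 (Incenp, the nearest to 0, lay above it under some of the other settings), with a median of -0.28 on the log2 scale against 0.00 over all genes tested, of which 49.2% were below 0. In 32 of the 42, every T3 library was below every control library, where 4.81% of all genes tested were lower without overlap. The summed level was 15.5% lower. The 16 were Ccna2, Ccnb2 and Cdc25b among cyclins and CDK1 activators, Plk1, Aurka, Aurkb and Pbk among kinases, Cdc20, Spc25, the spindle genes Kif2c, Kif4, Kif23, Nusap1 and Ckap2, and Ect2 and Foxm1. Checkpoint and ligase, cytokinesis, and chromosome and transcription genes, with 3 genes in each role, gave 1 each. The 8 kinetochore and passenger genes also gave 1.

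Ccnb2, cyclin B2, had the largest fitted change: it was at 55.7, 58.4, 55.9 and 57.3 CPM in control and 36.7, 42.98, 43.1 and 41.4 with T3. Its log2 fold change was -0.47 ± 0.11 (SE; adjusted p = 0.0166), and the groups lay apart. Cdc25b, a phosphatase that activates CDK1, had the smallest adjusted p of the members, at 56.7, 54.9, 59.6 and 47.1 CPM in control and 42.4, 44.3, 39.3 and 36.2 with T3. It fell by 0.43 ± 0.091 on the log2 scale (adjusted p = 0.00576) and was the only member called under every alternative run for this comparison. Ccnb1, cyclin B1, was at 27.4, 26.2, 28.6 and 26.6 CPM in control and 22.97, 21.9, 23.3 and 21.6 with T3; the groups lay apart, but its change of -0.28 did not pass (adjusted p = 0.0932). Cdk1, the kinase itself, was at 118, 109, 99.6 and 123 CPM in control and 88.6, 99.8, 97.3 and 94.96 with T3, and control library 3 lay inside the T3 range (-0.24, adjusted p = 0.0575).

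Among the kinases, Plk1, which drives entry into mitosis and spindle assembly, was at 70.9, 72.8, 74.8 and 72.1 CPM in control and 55.4, 60.3, 57.6 and 53.2 with T3. It fell by 0.36 ± 0.093 (adjusted p = 0.0268), with every T3 library below every control. Aurkb, Aurora B, the kinase of the chromosomal passenger complex, was at 60.6, 69.6, 68.8 and 65.4 CPM in control and 50.2, 54.4, 50.6 and 51.2 with T3. Its change was -0.36 ± 0.088 (adjusted p = 0.0185), again without overlap. Aurka, Aurora A of the spindle poles, was at 44.2, 39.8, 40.9 and 43.8 CPM in control and 33.3, 36.5, 33.3 and 28.9 with T3 (-0.35, adjusted p = 0.0311). Bub1b, BubR1 of the spindle checkpoint, was at 81.97, 92.8, 98.1 and 82.7 CPM in control and 78.3, 76.5, 75.6 and 72.99 with T3; the groups lay apart and the test was not passed (-0.23, adjusted p = 0.138). Cdc20, the checkpoint's target and an activator of the anaphase-promoting complex, was at 80.7, 83.7, 87.6 and 83.5 CPM in control and 64.3, 74.6, 68.9 and 60.8 with T3, and fell by 0.32 ± 0.087 (adjusted p = 0.0374). Ube2c, the E2 enzyme of that complex, was at 50.5, 50.5, 48.2 and 44.1 CPM in control and 40.6, 44.1, 42.2 and 42.3 with T3, with groups that met at 44.1 (-0.19, adjusted p = 0.372).

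Aurkb of the passenger complex, counted above among the kinases, was called. Of the 8 genes listed under kinetochore and passenger complex, only Spc25, a subunit of the NDC80 complex that grips microtubules, was called (-0.34 ± 0.091, adjusted p = 0.0362). Incenp, the scaffold of the passenger complex, had the fitted change nearest 0 of all 42 (-0.00 ± 0.083): it was at 76.3, 68.8, 85.5 and 60.7 CPM in control and 73.6, 75.2, 72.9 and 69.8 with T3. Its T3 libraries lay inside the range of its controls. Birc5, survivin of the same complex, was at 38.3, 40.3, 36.8 and 40.1 CPM in control and 28.1, 39.6, 29.6 and 28.9 with T3, so that T3 library 2 stood among the controls and the other 3 below them (-0.30, adjusted p = 0.147). Cenpf, which coats the kinetochore, was at 108, 119, 129 and 97.1 CPM in control and 107, 86.8, 95.5 and 102 with T3, and its groups overlapped (-0.21, adjusted p = 0.304).

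Of the spindle genes, Kif4, a kinesin of chromosomes and the central spindle, fell by 0.30 ± 0.070 (adjusted p = 0.0119), from 53.5, 53.6, 59.1 and 49.98 CPM to 43.9, 43.1, 44.6 and 43.98. Kif2c, which depolymerises microtubules at the centromere, fell by 0.36 ± 0.083 (adjusted p = 0.0122). Kif11, the kinesin that pushes the spindle poles apart, was at 103, 115, 114 and 93.1 CPM in control and 99.8, 86.7, 98.5 and 106 with T3, with full overlap (-0.13, adjusted p = 0.492). Kif20b, a kinesin of late cytokinesis, overlapped too, at 22.3, 21.00, 24.4 and 22.9 CPM in control and 22.05, 20.1, 20.8 and 23.1 with T3 (-0.08). Foxm1, the transcription factor that activates many of these genes, was at 83.6, 86.5, 102 and 81.8 CPM in control and 80.9, 63.5, 69.9 and 67.05 with T3, and fell by 0.33 ± 0.084 (adjusted p = 0.0226). Top2a was at 324, 336, 357 and 328 CPM in control and 306, 292, 299 and 308 with T3, apart but not past the test (-0.16, adjusted p = 0.263). Mki67, which coats mitotic chromosomes and encodes the Ki-67 proliferation marker, was at 129.5, 151, 188 and 136 CPM in control and 133, 137, 130.4 and 126 with T3; its groups overlapped and control library 3 was highest (-0.20, adjusted p = 0.422).

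Lists of other cell cycle genes were counted in the same way. Of 64 other mitosis genes, 5 fell and none rose, with a median of -0.21. They included Melk (-0.41, adjusted p = 0.00237), a kinase of proliferating cells, Cdca3 (-0.47), Iqgap3 (-0.50) and Nek2 (-0.25), a centrosome kinase. None of 16 genes of the anaphase-promoting complex and its partners passed (median -0.07), nor of 15 genes of the DREAM and MuvB complexes that repress or activate cell cycle promoters (median -0.01). Of 30 genes of DNA replication and G1/S only Mcm6, a subunit of the replicative helicase, fell (-0.20; list median -0.14). Markers of other cells moved beside the members: 2 of 6 neural progenitor markers fell (summed level 1279 to 1731 CPM in control, 1407 to 1528 with T3), ranges that overlap, and 2 of 6 ependymal markers rose (393.7 to 532.1 in control, 552.8 to 605.4 with T3). Of the 10 astrocyte markers only Glul rose, but the sums lay apart, at 10930 to 11750 CPM in control and 12360 to 12660 with T3. The sums also lay apart for microglial markers (43.24 to 53.39 against 55.34 to 62.65) and for vascular and meningeal markers (2363 to 2543 against 2030 to 2309), with none called in either list. Of the neuron markers Elavl4 rose and of the oligodendrocyte lineage markers Olig1 fell, 1 of 9 and 1 of 7, with sums that overlapped. The part of these lists in the result was not tested. The number of calls depended on single libraries. It was 14 without T3 library 2 and 10 without control library 1, but 8, 7, 6, 5, 4 and 3 without control library 4, control library 2, control library 3, T3 library 1, T3 library 3 and T3 library 4, and 24 without the 6 h CHX library 4, which enters only the estimate of spread. With only the 8 libraries compared in the fit it was 27. Shares over all genes tested are not given for these other fits.

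**Figure D3:**
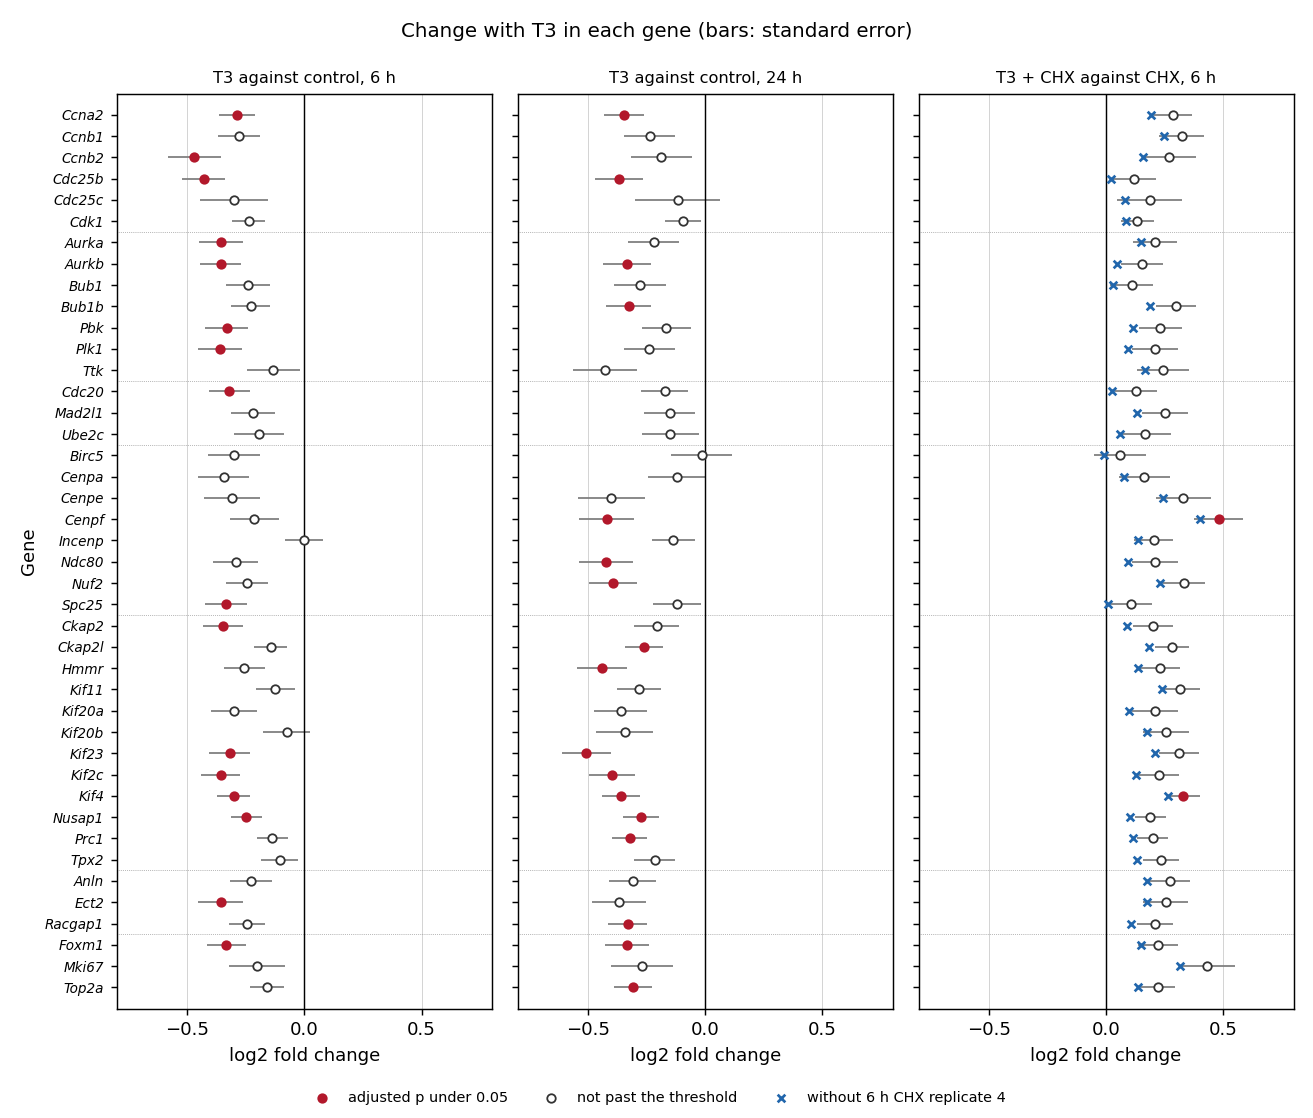
Fitted log2 fold change of each of the 42 genes with T3 (horizontal axis; bars are 1 standard error) at 6 h, at 24 h and at 6 h under CHX; filled points passed an adjusted p of 0.05, open ones did not, and crosses, in the panel under CHX, are the values without 6 h CHX library 4. All points at 6 h and 24 h lie below 0, and all points under CHX lie above it; without library 4 the crosses move toward 0 and 41 of 42 stay above it.

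After 24 h of T3 the genes were again lower. Of the 42, 17 fell and none rose, where 2.68% of all genes tested fell and 7.09% changed in either direction. All 42 had a fitted change below 0, as had 49.1% of all genes tested (median -0.29, against 0.00), and 21 were lower without overlap, where 7.02% of all genes tested were. The summed level was 17.4% lower. The comparison shares no library with that at 6 h. Ccna2, Cdc25b, Aurkb, Kif23, Kif2c, Kif4, Nusap1 and Foxm1 were called at both times, 8 genes that made up 50% of the calls at 6 h and 47.1% of those at 24 h. How many of all genes tested were called lower at both times was not counted. The overlap is therefore not read as particular to these 8.

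Of the 17 calls, 7 were among the 12 spindle genes. Kif23, the kinesin of the central spindle that organises cytokinesis, had the largest change, from 22.3, 20.4, 24.9 and 21.1 CPM in control to 14.2, 15.6 and 16.8 with T3 (-0.51 ± 0.10, adjusted p = 0.00231). Prc1, which bundles the microtubules of the same structure, was at 58.7, 56.6, 62.8 and 56.00 CPM in control and 45.4, 46.1 and 48.7 with T3 (-0.32 ± 0.075, adjusted p = 0.00739). Kif23 and Prc1 were the 2 members called under every alternative run for this comparison. Kif4 fell by 0.36 ± 0.082 (adjusted p = 0.00595), and Hmmr, a spindle protein that binds hyaluronan, by 0.44 ± 0.11 (adjusted p = 0.00959). Kif11 was at 52.6, 51.7, 52.7 and 52.6 CPM in control and 37.4, 44.4 and 47.1 with T3, apart yet not past the test (-0.28, adjusted p = 0.0739). Kif20b was at 11.3, 11.1, 12.1 and 10.05 CPM in control and 7.87, 7.54 and 10.7 with T3, and T3 library 3 lay among the controls (-0.34, adjusted p = 0.096). Racgap1, the partner of Kif23 in cytokinesis, fell too (-0.33, adjusted p = 0.0153).

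Of the 6 cyclin and CDK1 genes, 2 fell at 24 h and 4 did not pass. Ccnb1 was at 11.8, 11.5, 13.03 and 10.2 CPM in control and 11.8, 9.44 and 8.59 with T3, with T3 library 1 inside the control range (-0.24, adjusted p = 0.221). Ccnb2 was at 27.7, 22.2, 33.8 and 24.2 CPM in control and 26.8, 24.4 and 20.1 with T3, also overlapping (-0.19). Cdk1 was at 67.1, 63.3, 72.6 and 68.3 CPM in control and 69.7, 61.9 and 59.1 with T3 (-0.10). Cdc25b and Ccna2 were the 2 that fell: Cdc25b was at 36.2, 33.7, 39.8 and 36.4 CPM in control and 29.7, 27.1 and 28.1 with T3 (-0.37, adjusted p = 0.0256), and Ccna2, cyclin A2, fell by 0.35 ± 0.086 (adjusted p = 0.0125).

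For Plk1, Aurka, Cdc20 and Ube2c, none of them called, T3 library 1 stood above the other 2. Plk1 was at 27.3, 28.3, 29.5 and 26.5 CPM in control and 27.8, 21.5 and 21.9 with T3 (-0.24, adjusted p = 0.207). Aurka was at 20.9, 21.8, 20.7 and 23.5 CPM in control and 23.3, 16.2 and 16.8 with T3 (-0.22). Cdc20 was at 37.1, 34.8, 38.3 and 36.7 CPM in control and 36.9, 30.7 and 30.4 with T3 (-0.17). Each of these had T3 library 1 within the control range and the others below it. Ube2c followed the same pattern, at 24.5, 21.6, 27.3 and 23.5 CPM in control and 26.9, 18.6 and 20.4 with T3 (-0.15). Birc5 had the fitted change nearest 0 (-0.02 ± 0.13), at 18.8, 16.7, 19.6 and 15.9 CPM in control and 21.8, 14.5 and 16.7 with T3, where T3 library 1 was the highest of all 7. Incenp was at 45.9, 43.8, 48.9 and 50.2 CPM in control and 45.04, 41.4 and 42.6 with T3 (-0.14, overlapping).

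For Cenpf, Top2a and Mki67 the same library was the lowest of its group. Cenpf was at 64.97, 62.8, 69.6 and 61.5 CPM in control and 40.4, 50.2 and 54.1 with T3 (-0.42 ± 0.12, adjusted p = 0.0267). Top2a was at 195, 197, 213 and 192 CPM in control and 145, 159 and 179.7 with T3 (-0.31 ± 0.080, adjusted p = 0.017). Mki67 was at 84.8, 85.97, 96.00 and 81.8 CPM in control and 58.5, 74.8 and 83.2 with T3, and T3 library 3 lay inside the control range (-0.27, adjusted p = 0.248). Cenpf and Top2a were lower in every T3 library. Aurkb, Bub1b and Foxm1 were called and did not overlap. Aurkb was at 32.3, 27.6, 34.4 and 30.3 CPM in control and 27.3, 24.2 and 22.8 with T3 (-0.33, adjusted p = 0.0443). Bub1b was at 45.2, 44.3, 48.7 and 42.1 CPM in control and 33.95, 37.5 and 36.2 with T3 (-0.33, adjusted p = 0.0348). Foxm1 was at 44.7, 40.3, 47.7 and 39.3 CPM in control and 33.3, 34.2 and 34.7 with T3 (-0.33, adjusted p = 0.0323).

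Among other mitosis genes 13 of 64 fell and none rose at 24 h (median -0.20). They included Lmnb1, lamin B1 of the nuclear envelope (-0.30, adjusted p = 0.00115), Kif18b (-0.45), Trip13 (-0.57), which acts on the checkpoint, and Espl1, separase (-0.52). DNA replication and G1/S genes fell in 6 of 30, all 30 having a fitted change below 0 (median -0.23), among them Uhrf1 (-0.44), Mcm4 (-0.29), Mcm2 (-0.29) and Rrm1 (-0.24). Of the DREAM and MuvB genes only Rbl1, which encodes a pocket protein related to the retinoblastoma protein, fell (-0.36; list median -0.07), and none of the anaphase-promoting complex did (median 0.01). Progenitor markers fell in 3 of 6, with sums of 1752 to 1914 CPM in control and 1586 to 1713 with T3. Astrocyte markers fell in 2 of 10 and rose in 1, oligodendrocyte lineage markers fell in 1 of 7, and vascular and meningeal markers fell in 1 of 9 and rose in 1, with sums that overlapped. The part of these lists was not tested. Leaving out 1 library moved the count most for control library 3, with 5 calls; it was 11 without control library 1 or without T3 library 2, 13 (median -0.29) without T3 library 1, and 23 without 6 h CHX library 4. With only the 24 h libraries in the fit it was 3. Shares over all genes tested are not given for these other fits.

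Whether the T3 effect differed between 24 h and 6 h was tested directly, and no member passed, where 0.839% of all genes tested did. The median difference was -0.05, with 16 members above 0 and 26 below, where 51.1% of all genes tested were below. At an unadjusted p under 0.05 there were 0 members. The smallest adjusted p belonged to Prc1 (-0.19 ± 0.10, adjusted p = 0.374). The highest difference was that of Birc5 (0.29 ± 0.17) and the lowest that of Ttk, a kinase of the spindle checkpoint (-0.30 ± 0.18). DESeq2 called 0 as well. Without 24 h T3 library 1 none passed either, with a median of -0.04.

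Under CHX, T3 no longer went with lower levels. All 42 genes had a fitted change above 0 (median 0.22), while 51.7% of all genes tested were below it (median -0.01). Only Cenpf and Kif4 rose past the threshold and none fell, where 1.16% of all genes tested rose and 1.29% changed in either direction, and 16 were higher without overlap, where 7.16% of all genes tested were. The summed level was 18.5% higher, and 11.2% higher without CHX library 4. Cenpf was at 81.2, 77.7, 92.6 and 65.8 CPM with CHX and 107, 109, 130.2 and 97.2 with CHX and T3 (0.48 ± 0.10, adjusted p = 0.0132). Kif4 was at 45.4, 43.5, 47.1 and 37.02 CPM with CHX and 52.9, 52.6, 58.05 and 53.9 with both (0.33 ± 0.070, adjusted p = 0.0101). In both genes all libraries with T3 lay above all those without. Next came Ckap2l, a spindle pole protein (0.28, adjusted p = 0.0558), and Kif11 (0.32, adjusted p = 0.0605). The smallest change was that of Birc5 (0.06).

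Both calls were lost without CHX library 4. Without it no member passed in this comparison, where 0.891% of all genes tested were called, and the median was 0.13. Cenpf then had 0.40 (adjusted p = 0.0857) and Kif4 0.26 (adjusted p = 0.0624), and 41 of the 42 remained above 0, all except Birc5 (-0.01). No member passed either without CHX with T3 library 3, and 10 did without CHX library 3. Other lists moved with library 4 as well: summed astrocyte markers were 9776 CPM in it against 8183 to 8522 in the other CHX libraries, ependymal markers 699.6 against 492.4 to 564.2, and vascular and meningeal markers 1501 against 1851 to 2077. Library 4 was the only CHX library without T3 on lane 6, where all libraries with CHX and T3 were. With lane as a term, 34 members rose and the median was 0.57, but that term is set by library 4 alone. Shares over all genes tested are not given for the fit with lane or for those without other libraries. Their counts are therefore not read as particular to the members. With library 4 left out, T3 and lane cannot be told apart in this comparison.

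Other mitosis genes gave 2 of 64 higher and none lower (median 0.21): Wee1, the kinase that holds CDK1 off (0.40, adjusted p = 0.0348), and Dlgap5, a spindle protein (0.36, adjusted p = 0.0422). None of 64 passed without library 4 (median 0.13). No gene of the anaphase-promoting complex, the DREAM and MuvB complexes or DNA replication passed (medians -0.01, 0.03 and 0.11). Microglial markers had a fitted change below 0 in all 10, with none called, and sums of 29.97 to 44.41 CPM with CHX and 26.65 to 28.6 with CHX and T3. Whether these bear on the members was not tested.

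The T3 effect with CHX minus that without CHX tested this contrast itself. The difference was above 0 in all 42 (median 0.50), while 51.2% of all genes tested were below it (median 0.00). It passed for 22, none in the other direction, where 0.584% of all genes tested were called higher and 1.22% in either direction. Ccnb2 had the largest difference (0.74 ± 0.16, adjusted p = 0.0293) and Incenp the smallest (0.21 ± 0.12, adjusted p = 0.482). The smallest adjusted p were those of Kif4 (0.63 ± 0.10, adjusted p = 0.00289), Ccna2 (0.57, adjusted p = 0.0165), Kif23 (0.63, adjusted p = 0.0165) and Kif2c (0.58, adjusted p = 0.0253). By role, 4 of 6 cyclin and CDK1 genes, 5 of 7 kinases, 0 of 3 checkpoint and ligase genes, 2 of 8 kinetochore and passenger genes, 7 of 12 spindle genes, 3 of 3 cytokinesis genes and 1 of 3 chromosome and transcription genes passed. Outside the list, 13 of 64 other mitosis genes passed, all higher (median 0.42), such as Melk (0.64, adjusted p = 0.00678) and Nek2 (0.48), and 1 of 30 replication genes, Pole, a DNA polymerase (0.57). Without CHX library 4 these counts were 4 of 64 and 0 of 30.

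Without CHX library 4 the difference remained above 0 in all 42, with a median of 0.40, and 7 passed: Kif4, Ccna2, Kif23, Kif2c, Bub1b, Ckap2 and Nusap1, where 0.293% of all genes tested were called in either direction. Kif4 then had 0.56 (adjusted p = 0.00561) and Ccnb2 0.63 (adjusted p = 0.0558). Other single libraries moved the count as well. It was 3 without control library 2, control library 3, T3 library 4 or CHX with T3 library 2, 4 without T3 library 3 or CHX with T3 library 3, and 9, 10, 11 and 12 without control library 1, T3 library 1, CHX with T3 library 1 and CHX with T3 library 4. The lanes were the same as above, so that without library 4 the part of lane in the difference cannot be told apart from that of CHX with T3.

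CHX alone for 6 h lowered most of the genes but by very different amounts. Of the 42, 33 fell and none rose, where 30.6% of all genes tested fell and 67.5% changed in either direction, and 30 were lower without overlap, where 28.4% of all genes tested were. The median was -0.39, against 0.06 over all genes tested. The summed level was 25.5% lower, and 20.6% lower without library 4. The range ran from -1.25 for Ccna2 to 0.18 for Kif20b. By role, the median was -0.72 for cyclin and CDK1 genes (range -1.25 to 0.17) and -0.62 for checkpoint and ligase genes. It was -0.41 for kinases (-1.25 to -0.09) and -0.37 for spindle genes. Kinetochore and passenger genes had -0.33 (-0.78 to 0.12), chromosome and transcription genes -0.32 and cytokinesis genes -0.21. Differences between roles were not tested.

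Ccna2, cyclin A2, which acts in S phase and G2, fell furthest, from 113, 119.5, 124 and 118 CPM in control to 50.6, 50.8, 58.5 and 40.1 with CHX (-1.25 ± 0.079, adjusted p = 6.73e-13). With CHX and T3 it was at 60.5, 62.7, 62.4 and 58.1 CPM. Plk1 was at 31.4, 32.96, 35.4 and 22.9 CPM with CHX (-1.25 ± 0.10, adjusted p = 2.68e-11) and at 32.9, 39.4, 35.99 and 33.5 with CHX and T3. In both genes every CHX library lay below every control library. Ckap2l (-0.83, adjusted p = 2.65e-10) and Bub1b followed. Bub1b was at 52.4, 55.1, 54.2 and 38.04 CPM with CHX (-0.83 ± 0.085, adjusted p = 4.37e-09) and 62.5, 65.6, 58.3 and 59.6 with both. Foxm1 was at 53.6, 49.3, 54.4 and 42.4 CPM with CHX (-0.83 ± 0.085, adjusted p = 4.97e-09) and 56.7, 59.2, 61.5 and 55.4 with both. These genes fell in every CHX library. Cdc25b was at 31.7, 31.3, 35.2 and 24.01 CPM with CHX (-0.84) and 30.4, 34.1, 34.2 and 34.00 with both. In Bub1b and Foxm1 the groups with CHX, with and without T3, lay apart from each other.

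Ccnb1 was at 15.9, 15.6, 18.4 and 13.2 CPM with CHX (-0.79 ± 0.093, adjusted p = 5.46e-08) and 20.2, 20.96, 19.2 and 18.4 with both. Cdk1 was at 75.3, 70.5, 74.1 and 64.2 CPM with CHX (-0.66) and 83.05, 80.1, 70.6 and 78.1 with both. Ccnb2 changed less, at 45.3, 43.6, 46.7 and 31.6 CPM with CHX (-0.44, adjusted p = 0.00134) and 47.7, 55.3, 51.5 and 47.3 with both. The 3 genes were all lower in every CHX library than in every control. Aurkb was at 42.9, 44.1, 43.1 and 30.9 CPM with CHX (-0.72) and 41.98, 47.3, 43.8 and 45.99 with both. Aurka was at 32.5, 31.1, 35.7 and 27.8 CPM with CHX (-0.41) and 39.6, 35.96, 34.6 and 36.7 with both. Cdc20 was at 56.9, 60.3, 59.2 and 42.8 CPM with CHX (-0.61) and 61.04, 63.6, 52.6 and 62.3 with both. These 3 fell without overlap with control. Ube2c was at 34.7, 32.6, 39.97 and 25.3 CPM with CHX (-0.55) and 39.04, 37.6, 37.6 and 34.8 with both, and it fell too. Birc5 was at 33.4, 30.2, 31.7 and 25.8 CPM with CHX (-0.36, adjusted p = 0.00639) and 33.7, 32.9, 28.2 and 31.5 with both.

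Top2a, Mki67 and Kif11 fell less than the median of the 42, and Incenp and Kif20b did not pass. Top2a was at 282, 283, 298 and 221 CPM with CHX (-0.31, adjusted p = 0.000559) and 307, 318, 340.5 and 299 with both. Mki67 was at 122, 137, 133 and 91.1 CPM with CHX (-0.32, adjusted p = 0.0192) and 156, 165, 187 and 144 with both. Kif11 was at 88.2, 92.6, 95.8 and 72.5 CPM with CHX (-0.29, adjusted p = 0.00392) and 104, 108, 119 and 104 with both. For Mki67 and Kif11 the CHX and control libraries overlapped. Incenp was at 67.8, 68.1, 74.2 and 57.03 CPM with CHX and 75.1, 80.99, 80.3 and 71.2 with both, and did not pass (-0.13, adjusted p = 0.177). Kif20b was at 25.2, 26.98, 29.1 and 21.1 CPM with CHX and 29.9, 31.2, 33.7 and 27.4 with both, with library 4 of CHX inside the control range (0.18, adjusted p = 0.127). Cdc25c, the other CDK1 phosphatase listed (0.17), and Spc25 (0.12) were above 0 as well and did not pass.

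Without library 4 the count was 29 lower and 2 higher, where 65.1% of all genes tested were called in either direction. The 2 that then rose were Kif20b (0.26, adjusted p = 0.0246) and Spc25 (0.22, adjusted p = 0.0166), and the median was -0.30. Ccna2 (-1.15) and Plk1 (-1.13) were still the lowest. Mki67 (-0.21, adjusted p = 0.104), Cenpa (-0.21, adjusted p = 0.0839), Ect2 (-0.14, adjusted p = 0.196) and Racgap1 (-0.11, adjusted p = 0.105) no longer passed.

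With all CHX libraries in the fit, of the other mitosis genes 31 fell and 9 rose of 64 (median -0.20), with Lmnb1 (-1.96, adjusted p = 2.55e-19), Cks1b, a CDK subunit (-1.53), and Cdca5 (-1.24) among the lowest adjusted p; without library 4, 26 fell and 13 rose (median -0.12). In the anaphase-promoting complex 6 of 16 were higher and 5 lower, with Cdc27 (0.74) and Anapc7 (0.63) up and Anapc5 (-0.66) down. The DREAM and MuvB genes gave 5 higher and 5 lower of 15, with Tfdp1 (-0.76) and E2f8 (-1.16) down, and replication genes gave 6 higher and 11 lower of 30, with Rfc3 (-1.26) and Ccne2, cyclin E2 (-1.13), down. Over all genes tested 37% rose and 30.6% fell, and the counts for the anaphase-promoting complex and for the DREAM and MuvB genes lie near those shares. Markers of astrocytes and of other cells moved in this comparison. Of 10 astrocyte markers 7 fell, with sums of 10930 to 11750 CPM in control and 8183 to 9776 with CHX that did not overlap, and 8 fell without library 4. Of 6 ependymal markers 4 rose (393.7 to 532.1 CPM in control, 492.4 to 699.6 with CHX), or 2 without library 4. Of 7 oligodendrocyte lineage markers 3 fell and 2 rose (767.9 to 884.7 against 458.2 to 514.6), or 5 and 1 without library 4. Vascular and meningeal markers fell in 3 of 9 and rose in 1 (2363 to 2543 against 1501 to 2077), microglial markers fell in 3 of 10, and progenitor markers fell in 4 of 6 and rose in 2. The part of these lists in the result was not tested.

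**Figure D4:**
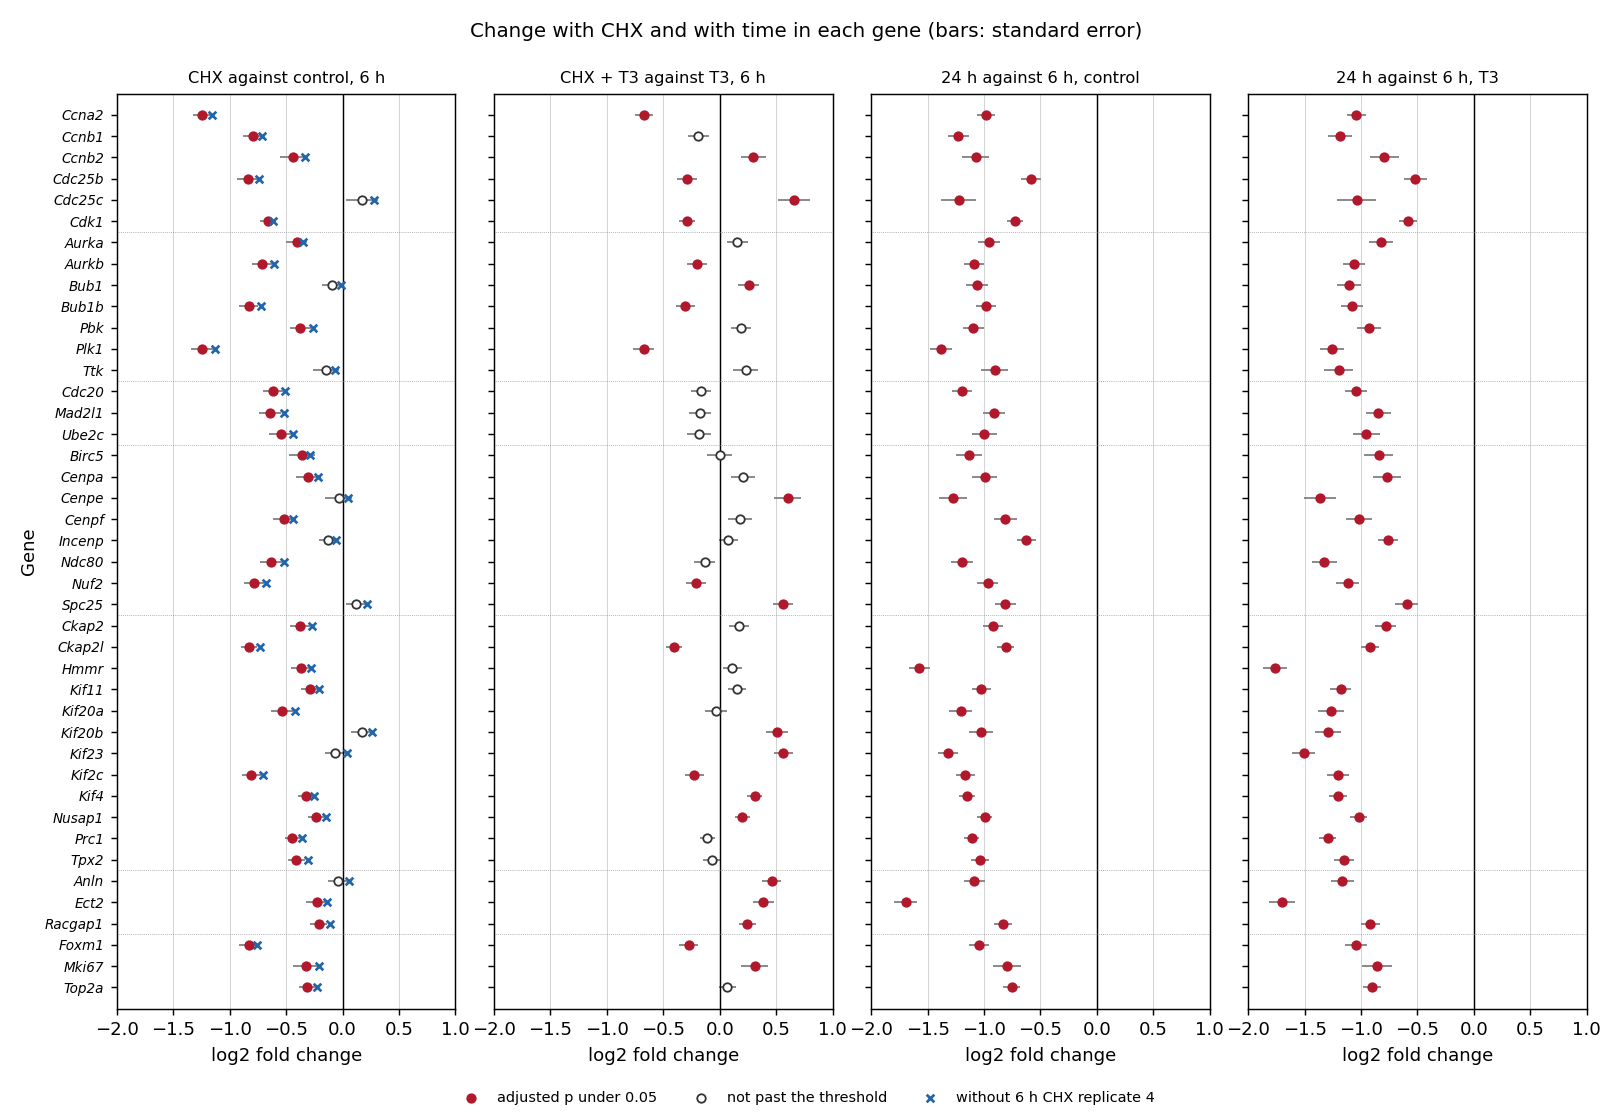
Fitted log2 fold change of each of the 42 genes (horizontal axis; bars are 1 standard error) with CHX, with CHX in the presence of T3, and from 6 h to 24 h in control and in T3-treated cells; filled points passed an adjusted p of 0.05, open ones did not, and crosses, in the panel for CHX alone, are the values without 6 h CHX library 4. With CHX the points spread from -1.25 to 0.18, and with time all 42 lie below 0.

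In the presence of T3, some of the genes rose with CHX and others fell, in numbers that do not set them apart. Of the 42, 13 rose and 10 fell, where 36.3% of all genes tested rose, 31% fell and 67.3% changed in either direction, and the median was 0.10 (0.04 over all genes tested). The members' shares were below those over all genes in both directions, so the counts show nothing particular to them. Without overlap, 14 were higher and 14 lower, where 34.4% and 29.2% of all genes tested were. The 10 that fell were Ccna2 (-0.67 ± 0.078, adjusted p = 4.18e-08), Plk1 (-0.67 ± 0.10, adjusted p = 9.64e-07), Ckap2l, Bub1b, Cdk1, Cdc25b, Foxm1, Kif2c, Nuf2 and Aurkb. The 13 that rose included Kif23 (0.56 ± 0.086, adjusted p = 2.91e-06), Spc25 (0.56 ± 0.090, adjusted p = 5.99e-06) and Cdc25c, with the highest change (0.66 ± 0.14). Cenpe, a kinetochore kinesin (0.60), Kif20b (0.51), Anln, anillin of the cytokinetic ring (0.46), Ect2, which activates RhoA there (0.39), Kif4, Mki67, Ccnb2, Bub1, Racgap1 and Nusap1 rose as well. All 3 cytokinesis genes were among them. Without 6 h CHX library 4 in the estimate of spread, 15 rose and 12 fell. Of the other mitosis genes 29 rose and 18 fell of 64 (median 0.20), of the replication genes 13 and 8 of 30, of the anaphase-promoting complex 6 and 5 of 16, and of the DREAM and MuvB genes 5 and 4 of 15. Microglial markers fell in 7 of 10 (summed level 55.34 to 62.65 CPM with T3, 26.65 to 28.6 with both), as did 7 of 10 astrocyte markers (12360 to 12660 against 7795 to 8341), and their part was not tested. This comparison shares its CHX with T3 libraries with that of T3 under CHX, and here lane 5 stands wholly against lane 6. With lane as a term the median was 0.47 and 7 of the 10 that fell had a fitted change above 0; only Ccna2, Plk1 and Cdk1 stayed below.

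The time in culture went with the largest differences. From 6 h to 24 h all 42 genes fell in control cells, where 28.4% of all genes tested fell and 56.6% changed in either direction, with a median of -1.03 (0.00 over all genes tested). All 42 were lower without overlap, where 26.3% of all genes tested were, and the summed level was 49.4% lower. In T3-treated cells all 42 fell too, where 28.2% of all genes tested fell and 57.6% changed in either direction, with a median of -1.04 (0.02 over all genes tested), again without overlap (25.7% of all genes tested), and the sum was 50.5% lower. Ect2 fell furthest in control, from 123, 109.9, 122 and 118 CPM at 6 h to 40.3, 32.96, 40.3 and 32.7 at 24 h (-1.69 ± 0.10, adjusted p = 2.47e-12). Hmmr went from 48.6, 47.00, 49.6 and 42.6 CPM to 13.9, 16.3, 18.3 and 14.4 (-1.57 ± 0.092, adjusted p = 1.58e-12). Plk1 (-1.38), Kif23 (-1.32), Prc1 (-1.11, adjusted p = 3.74e-12) and Kif4 (-1.15, adjusted p = 5.49e-12) were among the others. Cdc25b (-0.58), Incenp (-0.63) and Cdk1 (-0.73) changed least.

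With T3 the changes ran from Hmmr (-1.76 ± 0.10, adjusted p = 1.73e-12), Ect2 (-1.70, adjusted p = 1.23e-11), Kif23 (-1.51), Prc1 (-1.29, adjusted p = 1.53e-12) and Kif4 (-1.21, adjusted p = 1.28e-11) to Cdc25b (-0.52), Cdk1 (-0.58) and Spc25 (-0.59). Other mitosis genes fell in 58 of 64 and rose in 3 in control (median -0.88), with Spag5, a spindle protein (-1.07, adjusted p = 3.59e-12), Nek2 (-1.04) and Cep55, which acts in abscission (-1.51), among them; with T3 56 fell and 2 rose (median -0.86). DREAM and MuvB genes fell in 11 of 15 (median -0.43), Lin54 among them (-0.82), while E2f7, a repressor of the E2F family, rose (1.35). Replication and G1/S genes fell in 15 of 30 and rose in 4 (median -0.16), Cdc45 among those that fell (-0.59). The anaphase-promoting complex gave 3 higher and 4 lower of 16 (median -0.06), with Anapc5 at -0.33. In control, all 6 ependymal markers rose (393.7 to 532.1 CPM at 6 h, 972.8 to 1238 at 24 h), as did 6 of 9 neuron markers (497.4 to 540.3 against 533.9 to 589.6) and 4 of 10 microglial markers (43.24 to 53.39 against 40.42 to 93.67). Astrocyte markers fell in 4 of 10 and rose in 1 in control, with sums that overlapped, and fell in 6 of 10 and rose in 2 with T3 (12360 to 12660 CPM at 6 h, 9998 to 11080 at 24 h). The part of these lists was not tested. The 6 h libraries were on lane 5 and the 24 h libraries on lanes 6 and 7, so time and lane cannot be told apart except through 6 h CHX library 4; with lane as a term the medians were -0.61 and -0.64. Leaving that library out kept the count at 42 in both comparisons, and leaving out 24 h T3 library 1 kept it at 42 with T3 (median -1.09).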

How the data were processed

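Gene counts of 23 RNA-seq libraries (50 nt reads) were used as deposited by the authors: whole-number counts of reads per Ensembl gene, 1 file per library, not normalized. Per the submitters' processing notes the tools were bcl2fastq, FastQC, Bowtie, TopHat, HTSeq and edgeR, with the genome GRCm38; they list no versions. How HTSeq was set (mode, strand, annotation) was not given in the sources used here. In each file, 5 lines named no gene and were left out of library sizes and tests; reads that did not map uniquely were 30.7 to 42.3%, reads in no gene 3.75 to 5.81% and ambiguous reads 1.4 to 1.7% of the total. Identifiers were given symbols from a GRCm38 annotation, in which 36429 of 38293 were found. Gene counts per library were 13843040 to 22997873. No 2 libraries agreed within sampling noise (chi-square per gene 1.73 to 38.4 over 33 replicate pairs).

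Counts were scaled by TMM, filtered by filterByExpr with a minimum count of 10, which left 16087 genes, and fitted with edgeR 4.0.16 (R 4.3.3, limma 3.58.1) over all 23 libraries with 1 mean per group and 17 residual degrees of freedom. The spread between replicate libraries beyond counting error (biological coefficient of variation) was 8.57%. The test of the quasi-likelihood F statistic was run for 9 comparisons, each adjusted by Benjamini-Hochberg over all genes tested, with a call at 0.05. The standard error of a fitted change is its size divided by the square root of F. Levels are CPM on TMM-scaled library sizes, and correlations used log2 CPM with a prior count of 2. The scripts were tested on simulated data with known changes. The labels do not say that replicates came from separate cultures or animals, so the p-values measure only how far these libraries scatter, which can be technical scatter.

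The members, the lists of other genes and the markers were chosen with earlier results of these data known. Levels in every library are given for 18 members that represent the roles; in each comparison the text also names the 4 members with the smallest adjusted p, the highest and lowest fitted change and any called against the majority, and up to 4 genes of each list with the smallest adjusted p. The alternatives were RLE size factors, no filter on low counts, a replicate block by number or by letter, lane as a term, only the groups compared, DESeq2 1.42.0, each library left out in turn and 6 h CHX library 4 left out. Promoter sequences came from RefSeq, build GRCm38.p6, and were searched on both strands.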

Additional observations from a re-analysis of the deposited data

Results flagged for a closer look

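Among 95 sets of 4 libraries checked, 1 gene in 1 group each, 5 had a library far from the other 3; chance alone flags about 1 in 20 such sets. Birc5 was at 39.6 CPM in 6 h T3 library 2, against 28.1 to 29.6 in the other 3. In 6 h CHX library 4, Aurkb was at 30.9 CPM against 42.9 to 44.1 and Bub1b at 38.04 against 52.4 to 55.2; this library was the lowest of its group for all 42 genes. Cdc25b was at 30.4 CPM in library 1 of 6 h CHX with T3, against 34 to 34.2. Kif11 was at 51.7 CPM in 24 h control library 2, against 52.6 to 52.7, a gap that is small in absolute terms.

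For 22 members the effect of T3 differed with and without CHX in a direct test of the difference. In each case the fitted change was below 0 without CHX and above 0 under it. The limit set by the lanes, given above, holds here too. On the log2 scale the difference was 0.74 for Ccnb2, 0.70 for Cenpf, 0.63 for Kif4, 0.63 for Kif23, 0.61 for Ect2, 0.60 for Ccnb1, 0.58 for Kif2c, 0.58 for Nuf2, 0.57 for Ccna2, 0.57 for Plk1, 0.56 for Aurka and 0.56 for Pbk. It was 0.55 for Foxm1, 0.55 for Cdc25b, 0.55 for Ckap2, 0.53 for Bub1b, 0.51 for Aurkb, 0.50 for Anln, 0.48 for Hmmr, 0.45 for Racgap1, 0.44 for Nusap1 and 0.42 for Ckap2l. Without 6 h CHX library 4, Kif4, Ccna2, Kif23, Kif2c, Bub1b, Ckap2 and Nusap1 passed, 7 in all.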

How the results depend on the processing

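Leaving out 1 library gave 3 to 24 calls for T3 at 6 h, 5 to 23 for T3 at 24 h, 0 to 10 for T3 under CHX, 31 to 33 for CHX, 19 to 27 for CHX with T3, 42 in each for 24 h against 6 h, 3 to 32 for the T3 effect with minus without CHX, whose median ran from 0.40 to 0.56, and 0 for the T3 effect at 24 h minus 6 h. With lane as a term, T3 at 6 h gave 25 calls, T3 under CHX 34 (median 0.57) and the T3 effect with minus without CHX 39 (median 0.85), and the medians were 0.47 for CHX with T3, -0.61 for 24 h against 6 h in control and -0.64 with T3. With only the groups compared, the counts were 27 for T3 at 6 h, 3 for T3 at 24 h and 4 for T3 under CHX. DESeq2 gave 10 for T3 under CHX and 34 for the T3 effect with minus without CHX, and no filter on low counts gave 4 for T3 under CHX. The cause of these shifts was not tested. Shares over all genes tested are not given beside these counts, which show only how far the members' calls moved. Called under every alternative were 1 of 16 calls for T3 at 6 h, 2 of 17 for T3 at 24 h, 0 of 2 for T3 under CHX, 29 of 33 for CHX, 10 of 23 for CHX with T3, 36 and 31 of 42 for 24 h against 6 h in control and with T3, and 3 of 22 for the T3 effect with minus without CHX.

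The labels do not say whether equal numbers mark paired libraries, and the data gave no clear sign of it: deviations correlated at -0.28 to 0.13 by number and -0.26 to 0.20 by letter. In no comparison did every library correlate best with its own number, though 3 of 4 did for T3 under CHX and for CHX. The replicate block gave 27 calls for T3 at 24 h and 9 for T3 under CHX (8 with the block by letter); no other count moved by over 1.5 times with the block.

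Relative to 6 h control, the summed level in 24 h T3 was 0.41 with RLE size factors, 0.44 on unscaled library totals and 0.40 as a geometric mean; on unscaled totals CHX with T3 was 0.92 and 24 h control 0.55, and as a geometric mean 6 h T3 was 0.83. Changes near 0 crossed it. Incenp with T3 at 6 h was 0.00456 with no filter, 0.00593 with the replicate block, 0.0048 with the block by letter; leaving out 1 library gave -0.0779 (6 h control library 4) to 0.0848 (control library 3), with 0.0208 without control library 1 and 0.0188 without T3 library 4. Birc5 with T3 at 24 h was 0.00728 with the block by letter and 0.0216 with lane; leaving out 1 library gave -0.183 (T3 library 1) to 0.108 (T3 library 2), with 0.0129 without control library 1, 0.0367 without control library 3 and 0.022 without T3 library 3; under CHX, leaving out 1 library gave -0.00978 (6 h CHX library 4) to 0.11 (CHX library 1). For CHX with T3 under lane, Cdc25b was 0.16, Aurkb 0.29, Bub1b 0.20, Kif2c 0.22, Ckap2l 0.024, Nuf2 0.26 and Foxm1 0.035. Each gene had at least 89 reads in every library, so that precision rests on 3 or 4 libraries per group.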
